A study of Homo sapiens with 12 samples.

Results

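The mitochondrially encoded genes are the genes carried by the mitochondrion's own circular genome rather than by the chromosomes of the nucleus. They were taken as every row of the gene count table whose gene name starts with MT-, which gave 37 of 58735 genes: 13 mRNA genes, 2 rRNA genes and 22 tRNA genes. By annotated strand, 28 lie on the + strand and 9 on the - strand of the reference sequence, and the - strand holds MT-ND6 and 8 tRNA genes. The cells were LX-2, an established human hepatic stellate cell line, the liver cell type that turns into a collagen-producing myofibroblast. RNA-seq was run on 4 groups of 3 libraries, described in the labels as biological replicates. SiNAT10_TGFB cells received an siRNA against NAT10 by lipid transfection and, 48 h later, TGF-β1 at 5 ng/ml for 24 h; SiNAT10 cells received the siRNA; TGFB cells received TGF-β1 at 5 ng/ml for 24 h; and con cells were untreated. NAT10 is the enzyme that acetylates cytidine in RNA, and TGF-β1 is the main cytokine that drives stellate cells to make matrix. No control siRNA is mentioned in the labels, nor a harvest time for SiNAT10, so loss of NAT10, transfection and time in culture cannot be told apart in the comparisons of siRNA with no siRNA.

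The mitochondrial genome codes for 13 proteins, all of them subunits of the respiratory chain and of ATP synthase, and for the rRNAs and tRNAs of the mitochondrial ribosome's own translation. Transcription starts in the non-coding control region and gives long precursor RNAs of each strand. The tRNAs lie between most of the mRNAs and rRNAs, and the enzymes that cut the tRNAs out release the others. The released mRNAs receive short poly(A) tails, and a few junctions that lack a tRNA are cut by proteins of the FASTK family.

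Most of these genes abut or overlap. The stretches below are the overlaps between mRNA genes, the tRNA gene between the rRNA genes, and MT-TP. A read on an overlap can cover bases of both genes, and how such reads were counted was not given. The rRNA genes had the largest fold changes of the tested mitochondrial genes in the siRNA comparisons. MT-ATP8 and MT-ATP6 share 46 bases, MT-ND4L and MT-ND4 share 7 and MT-ATP6 and MT-CO3 share 1; capitals mark the shared bases. Between the rRNA genes lies MT-TV, which is in capitals. MT-TP, the only tRNA gene with enough counts for a test, has no capitals. All are on hg38 from the GENCODE 29 transcripts, 5′ to 3′ on the strand given.
MT-RNR1 end, MT-TV and MT-RNR2 start (chrMT:1582-1690, + strand): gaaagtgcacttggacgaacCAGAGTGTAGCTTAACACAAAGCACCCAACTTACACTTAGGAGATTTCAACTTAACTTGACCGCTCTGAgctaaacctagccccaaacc
MT-ATP8 end and MT-ATP6 start (chrMT:8507-8592, + strand): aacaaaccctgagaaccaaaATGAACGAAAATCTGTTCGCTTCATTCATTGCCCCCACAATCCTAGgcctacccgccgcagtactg
MT-ATP6 end and MT-CO3 start (chrMT:9177-9237, + strand): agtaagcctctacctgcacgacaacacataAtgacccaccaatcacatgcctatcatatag
MT-ND4L end and MT-ND4 start (chrMT:10733-10793, + strand): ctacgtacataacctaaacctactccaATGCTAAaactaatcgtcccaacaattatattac
MT-TP (chrMT:15956-16023, - strand): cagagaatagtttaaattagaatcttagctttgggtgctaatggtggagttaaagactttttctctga

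The libraries held 25877008 to 35132582 counts in genes. NAT10 was at 15.8 to 20.7 CPM (counts rescaled to a common library total) in the 6 siRNA libraries and at 62.9 to 69.9 CPM in the 6 others. Markers of stellate and mesenchymal cells summed to 4220 to 4390 CPM in SiNAT10_TGFB, 3170 to 3370 in SiNAT10, 11900 to 12600 in TGFB and 5360 to 5690 in con; 9 of the 12 averaged over 1 CPM and LRAT was at 0 in every library. Hepatocyte markers summed to 24.4 to 28.4 CPM in SiNAT10_TGFB, 23.2 to 24.4 in SiNAT10, 13.7 to 15 in TGFB and 15.1 to 19 in con, with TTR at 0 in every library, and cholangiocyte markers to 40.6 to 43.7 in SiNAT10_TGFB, 66.1 to 73.9 in SiNAT10, 41.3 to 44.3 in TGFB and 41.6 to 47.4 in con. Endothelial markers summed to 1.12 to 2.33 CPM and macrophage and leukocyte markers to 1.27 to 5.56 CPM. The part of these differences in the results was not tested, and in bulk RNA a change in the number of cells and in RNA per cell cannot be told apart. Unless said otherwise, levels are CPM of counts scaled by TMM, a factor per library that offsets differences in composition. Log2 fold changes are from edgeR's quasi-likelihood test over all 18560 genes that passed its filter, with Benjamini-Hochberg adjusted p-values, and a gene was called at an adjusted p under 0.05.

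Of the 37 genes, 16 passed the filter on low counts: all 13 mRNA genes, both rRNA genes and MT-TP. The other 21 were tRNA genes, of which 20 had 0 counts in all 12 libraries and MT-TF had 0 to 6 counts per library. A count of 3, the limit that a count of 0 allows, equals 0.0871 to 0.115 CPM in these libraries. This covers counting error only, and how reads of short RNAs were selected or counted was not given in the sources used here. MT-TF and MT-TP are the tRNA genes at either edge of the control region. Mitochondrial genes took 2.29% ± 0.0503 of all counts in SiNAT10_TGFB, 2.44% ± 0.0551 in SiNAT10, 2.08% ± 0.0586 in TGFB and 2.17% ± 0.0513 in con (SD, n = 3 each), and the widest 95% exact binomial interval of a single library spanned 0.012 percentage points from end to end.

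**Figure D1:**
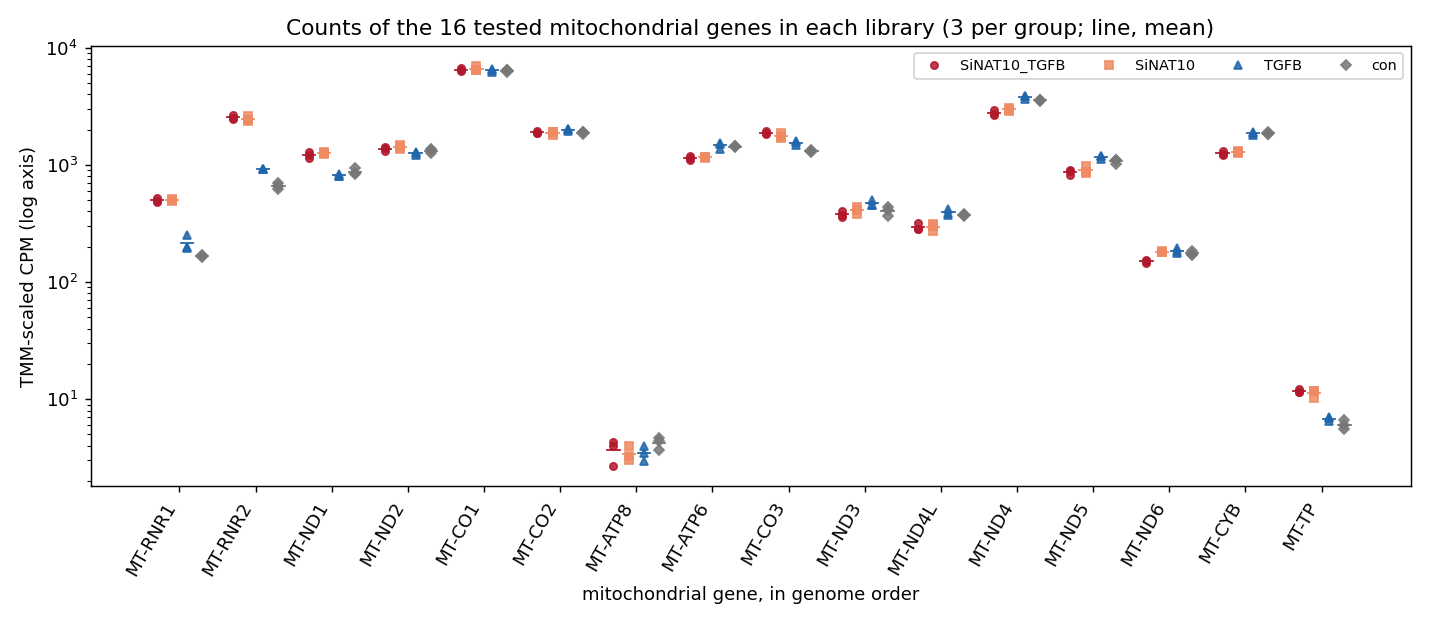
TMM-scaled CPM on a log axis for the 16 tested mitochondrial genes in genome order, with each library as a point and the mean of 3 as a line. MT-CO1 is highest in every group, between 6181.8 and 6972.2 CPM, and MT-ATP8 lowest, between 2.67 and 4.65 CPM; MT-RNR1 and MT-RNR2 are higher in both siRNA groups than in the groups without siRNA.

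Compared per length, as FPKM (fragments scaled by gene length and library size), MT-CO1, the catalytic core of cytochrome c oxidase, had the highest level in all 4 groups, at 4212.4 ± 108.3 in SiNAT10_TGFB, 4286.4 ± 205.8 in SiNAT10, 4162.5 ± 145.1 in TGFB and 4105.6 ± 52.4 FPKM in con (SD, n = 3 each). MT-CO2 followed in all 4. The ranks below differed between groups. MT-CO3 was rank 3 in both siRNA groups and rank 5 in TGFB and con; MT-RNR2 was rank 6 in both siRNA groups and rank 12 in TGFB and con; and MT-CYB was rank 9 in SiNAT10_TGFB, rank 10 in SiNAT10 and rank 6 in TGFB and con. In con, MT-CO3 at 1655.6 ± 28.1 and MT-CYB at 1620.5 ± 34.5 FPKM differed by about their SDs, and MT-ND2 at 1266.8 ± 55.2 and MT-ND4L at 1254.6 ± 13.1 FPKM by less than theirs.

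In both siRNA comparisons mitochondrial genes were called in both directions, as were genes overall. Between SiNAT10 and con, 10 of the 16 tested genes (62.5%) were called, 5 higher and 5 lower. This was near the share of all genes tested, 52.8% (26.4% higher and 26.4% lower), and does not set the mitochondrial genes apart. Between SiNAT10_TGFB and TGFB, 13 of the 16 (81.2%) were called, 6 higher and 7 lower. Of all genes, 53.1% were called there (26.3% higher and 26.8% lower). The 10 genes called in SiNAT10 against con were all called in the same direction in SiNAT10_TGFB against TGFB, and MT-ND2, MT-ND3 and MT-ND6 were called in the second comparison alone. The median log2 fold change of the 16 was 0.03 in SiNAT10 against con, beside 0.019 for all genes tested. It was -0.03 in SiNAT10_TGFB against TGFB, beside 0.008 for all genes tested.

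The rRNAs showed the largest log2 fold changes among the 16 genes in both siRNA comparisons. MT-RNR2 had 2466.5, 2491.8 and 2643.4 CPM in the SiNAT10_TGFB libraries, 2381.5, 2408.6 and 2625.9 CPM in SiNAT10, 924.1, 920.2 and 915.2 CPM in TGFB and 693.8, 625.2 and 658.0 CPM in con. MT-RNR2 encodes the large-subunit rRNA of the mitochondrial ribosome. All 6 siRNA libraries were above all 6 others, and the 3 TGFB libraries were above the 3 con libraries. Its log2 fold change was 1.91 (adjusted p = 8.54e-18, SE 0.052) in SiNAT10 against con, a 3.75-fold rise, and 1.46 (adjusted p = 2.03e-16, SE 0.051) in SiNAT10_TGFB against TGFB, a 2.75-fold rise. MT-RNR1 had 480.7, 486.5 and 523.1 CPM in the SiNAT10_TGFB libraries, 504.3, 486.7 and 514.6 CPM in SiNAT10, 195.8, 199.6 and 253.2 CPM in TGFB and 163.6, 167.0 and 169.2 CPM in con. MT-RNR1 encodes the small-subunit rRNA, and its siRNA libraries were likewise all above the others, without overlap. It rose 3.01-fold in SiNAT10 against con, with a log2 fold change of 1.59 (adjusted p = 4.48e-14, SE 0.075), and 2.3-fold in SiNAT10_TGFB against TGFB, with 1.20 (adjusted p = 3.29e-12, SE 0.074). Together the rRNA genes took 13.3% ± 0.503 of mitochondrial counts in SiNAT10_TGFB, 12.9% ± 0.351 in SiNAT10, 5.05% ± 0.165 in TGFB and 3.85% ± 0.1 in con (SD, n = 3 each).

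The rise was larger for MT-RNR2 than for MT-RNR1 in these values, with no test of that difference. The ratio of MT-RNR2 to MT-RNR1 counts per base was 3.12 ± 0.0265 in SiNAT10_TGFB, 3.01 ± 0.116 in SiNAT10, 2.64 ± 0.374 in TGFB and 2.42 ± 0.159 in con (SD, n = 3 each). The SiNAT10 libraries, at 2.89 to 3.12, lay above the con libraries, at 2.29 to 2.6, while the TGFB libraries spread from 2.21 to 2.89. Histone mRNAs and short nuclear RNAs, which largely lack long poly(A) tails, were also measured. Of 47 tested replication-dependent histone genes, 28 were higher and 1 lower in SiNAT10 against con, with a median log2 fold change of 1.04, and 26 were higher and 1 lower in SiNAT10_TGFB against TGFB, with a median of 1.06. Of 76 tested small nuclear and other short nuclear RNAs, 25 were higher and 1 lower in SiNAT10 against con (median 0.74), and 20 were higher and 2 lower in SiNAT10_TGFB against TGFB (median 0.72). Of all genes, 26.4% were higher and 26.4% lower in SiNAT10 against con, and 26.3% and 26.8% in SiNAT10_TGFB against TGFB. In TGFB against con, 3 histone genes were higher and 2 lower (median -0.12), and 4 short nuclear RNAs were higher and 3 lower (median 0.19). Of all genes, 11.9% were higher and 12.2% lower there. Both lists were added after the values were seen. The selection of RNA for the libraries was not given in the sources used here, and the part of library preparation in the rRNA difference was not tested.

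**Figure D2:**
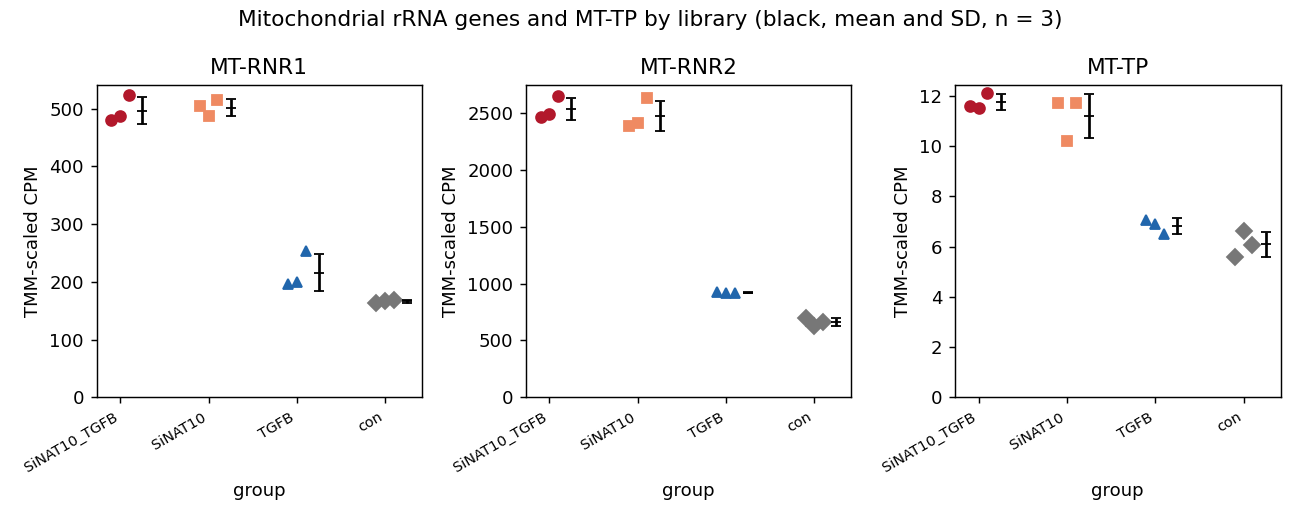
TMM-scaled CPM of MT-RNR1, MT-RNR2 and MT-TP in each library, with the mean and SD of 3 in black. In every panel the 6 siRNA libraries lie above the 6 libraries without siRNA, from 2381.5 against at most 924.1 CPM for MT-RNR2 to 10.2 against at most 7.07 CPM for MT-TP.

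MT-TP, the tRNA for proline on the - strand, followed the rRNAs at a far lower level. MT-TP had 11.6, 11.5 and 12.1 CPM in the SiNAT10_TGFB libraries, 11.7, 10.2 and 11.7 CPM in SiNAT10, 7.07, 6.9 and 6.48 CPM in TGFB and 5.58, 6.6 and 6.06 CPM in con. The siRNA libraries were all above the others, and the TGFB and con libraries overlapped. MT-TP rose with a log2 fold change of 0.89 (adjusted p = 1.46e-06, SE 0.12) in SiNAT10 against con and 0.78 (adjusted p = 7.22e-06, SE 0.12) in SiNAT10_TGFB against TGFB. The row held 192 to 342 counts per library. Whether counting used strand was not given in the sources used here, so RNA of MT-TP and RNA copied from the opposite strand cannot be told apart.

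Among the 13 mRNAs, some rose and others fell. Their counts summed to 19675.0 ± 392.4 CPM in SiNAT10_TGFB, 20144.5 ± 510.4 in SiNAT10, 21361.5 ± 703.0 in TGFB and 20596.4 ± 264.8 in con (SD, n = 3 each). The log2 ratio of the sums was -0.032 in SiNAT10 against con and -0.119 in SiNAT10_TGFB against TGFB, and became 0.023 and 0.012 when library size was the sole scaling. Of the 13, 2 rose and 5 fell in SiNAT10 against con, beside 26.4% higher and 26.4% lower of all genes. In SiNAT10_TGFB against TGFB, 3 rose and 7 fell, beside 26.3% higher and 26.8% lower of all genes.

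Complex I, NADH dehydrogenase, takes 7 of its subunits from this genome. MT-ND1 had 1281.6, 1202.0 and 1139.5 CPM in the SiNAT10_TGFB libraries, 1238.9, 1258.4 and 1293.0 CPM in SiNAT10, 837.8, 800.7 and 801.1 CPM in TGFB and 932.7, 835.7 and 855.2 CPM in con. All 6 siRNA libraries were above the 6 others for this gene, the first mRNA after the rRNAs. MT-ND1 rose with a log2 fold change of 0.53 (adjusted p = 1.57e-08, SE 0.053) in SiNAT10 against con and 0.57 (adjusted p = 4.52e-09, SE 0.053) in SiNAT10_TGFB against TGFB. MT-ND2 averaged 1370.3 ± 46.5 CPM in SiNAT10_TGFB, 1422.2 ± 50.4 CPM in SiNAT10, 1249.7 ± 42.6 CPM in TGFB and 1323.9 ± 58.1 CPM in con (SD, n = 3 each). MT-ND2 rose in SiNAT10_TGFB against TGFB, with 0.13 (adjusted p = 0.027, SE 0.049), and was not called in SiNAT10 against con, at 0.10 (adjusted p = 0.0832, SE 0.049), where it was called higher with library size as the sole scaling (0.158, adjusted p = 0.00924) and with upper quartile scaling (0.138, adjusted p = 0.0219). The call in SiNAT10_TGFB against TGFB did not hold without SiNAT10_TGFB library 1 (log2 fold change 0.11, adjusted p = 0.0799) or 3 (0.13, adjusted p = 0.0615), without TGFB library 2 (0.11, adjusted p = 0.113), with FPKM (0.14, adjusted p = 0.148) or without a filter on low counts (0.12, adjusted p = 0.0968), and the value was -0.022 with a trend on GC content removed.

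MT-ND4, MT-ND4L and MT-ND5, complex I genes farther from the rRNAs, fell in both siRNA comparisons. MT-ND4 had 2944.5, 2705.4 and 2640.7 CPM in the SiNAT10_TGFB libraries, 3079.8, 2880.8 and 2930.4 CPM in SiNAT10, 3858.1, 3662.5 and 3845.6 CPM in TGFB and 3578.1, 3571.7 and 3498.0 CPM in con. Every siRNA library was below every library without siRNA. MT-ND4 fell with a log2 fold change of -0.26 (adjusted p = 4.97e-05, SE 0.046) in SiNAT10 against con and -0.46 (adjusted p = 1.69e-08, SE 0.046) in SiNAT10_TGFB against TGFB. MT-ND4L averaged 295.6 ± 21.6 CPM in SiNAT10_TGFB, 294.4 ± 20.6 CPM in SiNAT10, 392.8 ± 23.6 CPM in TGFB and 373.7 ± 4.11 CPM in con (SD, n = 3 each). MT-ND4L, which shares its mRNA and the 7 capital bases above with MT-ND4, fell with -0.34 (adjusted p = 8.07e-05, SE 0.064) and -0.41 (adjusted p = 8.72e-06, SE 0.064) in the same comparisons, and the ratio of MT-ND4L to MT-ND4 counts per base stayed between 0.43 and 0.506 in all 12 libraries. MT-ND5 averaged 872.0 ± 39.8 CPM in SiNAT10_TGFB, 901.7 ± 67.7 CPM in SiNAT10, 1162.3 ± 43.6 CPM in TGFB and 1072.8 ± 43.7 CPM in con (SD, n = 3 each). MT-ND5 fell with -0.25 (adjusted p = 0.000682, SE 0.056) in SiNAT10 against con and -0.41 (adjusted p = 1.48e-06, SE 0.057) in SiNAT10_TGFB against TGFB. MT-ND3 averaged 379.2 ± 21.9 CPM in SiNAT10_TGFB, 409.3 ± 26.4 CPM in SiNAT10, 467.6 ± 28.5 CPM in TGFB and 405.7 ± 34.7 CPM in con (SD, n = 3 each). MT-ND3 fell in SiNAT10_TGFB against TGFB, with -0.30 (adjusted p = 0.000575, SE 0.067), and was at 0.013 (adjusted p = 0.89, SE 0.067, 95% interval -0.13 to 0.15) in SiNAT10 against con.

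MT-CYB, the only subunit of complex III encoded here and the last + strand mRNA before the control region, had the largest fall among the 16 in both siRNA comparisons. MT-CYB had 1309.0, 1231.1 and 1223.0 CPM in the SiNAT10_TGFB libraries, 1310.4, 1265.8 and 1281.9 CPM in SiNAT10, 1921.3, 1810.6 and 1870.4 CPM in TGFB and 1898.6, 1836.1 and 1828.2 CPM in con. The siRNA libraries lay between 1223.0 and 1310.4 CPM and the others between 1810.6 and 1921.3 CPM. MT-CYB fell with a log2 fold change of -0.53 (adjusted p = 1.29e-09, SE 0.046) in SiNAT10 against con and -0.57 (adjusted p = 2.8e-10, SE 0.046) in SiNAT10_TGFB against TGFB. Its share of mitochondrial mRNA counts was 6.37% ± 0.166 in SiNAT10_TGFB, 6.39% ± 0.145 in SiNAT10, 8.74% ± 0.0794 in TGFB and 9.0% ± 0.112 in con (SD, n = 3 each).

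The 3 subunits of complex IV, cytochrome c oxidase, did not move together. MT-CO3 had 1814.0, 1857.6 and 1930.9 CPM in the SiNAT10_TGFB libraries, 1759.8, 1693.7 and 1875.6 CPM in SiNAT10, 1569.6, 1478.3 and 1585.5 CPM in TGFB and 1324.6, 1280.2 and 1300.5 CPM in con. All siRNA libraries were above all others, and all TGFB libraries were above all con libraries. MT-CO3 rose with a log2 fold change of 0.45 (adjusted p = 5.01e-08, SE 0.048) in SiNAT10 against con and 0.27 (adjusted p = 4.55e-05, SE 0.048) in SiNAT10_TGFB against TGFB. MT-CO1 had 6479.5, 6312.8 and 6650.5 CPM in the SiNAT10_TGFB libraries, 6450.8, 6407.2 and 6972.2 CPM in SiNAT10, 6626.1, 6181.8 and 6483.8 CPM in TGFB and 6380.0, 6252.1 and 6415.7 CPM in con. The groups overlapped for MT-CO1, whose log2 fold change was 0.058 (adjusted p = 0.26, SE 0.042, 95% interval -0.03 to 0.15) in SiNAT10 against con and 0.011 (adjusted p = 0.846, SE 0.042, 95% interval -0.08 to 0.1) in SiNAT10_TGFB against TGFB. MT-CO2 averaged 1887.7 ± 46.4 CPM in SiNAT10_TGFB, 1876.0 ± 65.9 CPM in SiNAT10, 1990.7 ± 49.9 CPM in TGFB and 1883.9 ± 37.8 CPM in con (SD, n = 3 each). MT-CO2 was at -0.006 (adjusted p = 0.921, SE 0.044, 95% interval -0.1 to 0.09) and -0.077 (adjusted p = 0.155, SE 0.044, 95% interval -0.17 to 0.02) in these comparisons. With the GC trend removed MT-CO2 was called lower in both, at -0.093 (adjusted p = 0.0368) and -0.19 (adjusted p = 0.000117), and MT-CO1 in the second, at -0.098 (adjusted p = 0.0213). With library size as the sole scaling MT-CO1 was instead called higher in both, at 0.113 (adjusted p = 0.0216) and 0.141 (adjusted p = 0.0048).

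The subunits of complex V, ATP synthase, are MT-ATP6 and MT-ATP8, carried on a single mRNA with overlapping reading frames. MT-ATP6 had 1183.1, 1091.5 and 1152.0 CPM in the SiNAT10_TGFB libraries, 1165.3, 1134.8 and 1167.6 CPM in SiNAT10, 1521.5, 1376.6 and 1498.1 CPM in TGFB and 1408.7, 1437.0 and 1437.0 CPM in con. Its siRNA libraries were all below the others. MT-ATP6 fell with a log2 fold change of -0.30 (adjusted p = 1.38e-05, SE 0.049) in SiNAT10 against con and -0.36 (adjusted p = 1.36e-06, SE 0.049) in SiNAT10_TGFB against TGFB. MT-ATP8 had 2.67, 4.3 and 4.02 CPM in the SiNAT10_TGFB libraries, 3.26, 3.0 and 3.97 CPM in SiNAT10, 3.49, 4.01 and 2.97 CPM in TGFB and 4.65, 3.7 and 4.4 CPM in con. These groups overlapped. MT-ATP8 was at -0.32 (adjusted p = 0.189, SE 0.2, 95% interval -0.73 to 0.1) in SiNAT10 against con. In SiNAT10_TGFB against TGFB it was at 0.066 (adjusted p = 0.81, SE 0.2, 95% interval -0.35 to 0.48). The first interval includes the fall of MT-ATP6 in that comparison, while the -0.36 of MT-ATP6 lies just below the second. With the GC trend removed MT-ATP8 was called lower in SiNAT10 against con, at -0.474 (adjusted p = 0.0351; with the replicate block -0.477, adjusted p = 0.0424). Per base, MT-ATP8 held 0.0106 ± 0.00288 of the counts of MT-ATP6 in SiNAT10_TGFB, 0.0097 ± 0.00133 in SiNAT10, 0.00788 ± 0.00156 in TGFB and 0.00982 ± 0.00124 in con (SD, n = 3 each), although both lie on the same mRNA. How reads on their 46 shared bases were counted was not given in the sources used here.

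MT-ATP6 and MT-CO3, neighbours with no tRNA between them and 1 shared base, changed in opposite directions in both siRNA comparisons. The ratio of MT-CO3 to MT-ATP6 counts per base was 1.42 ± 0.0814 in SiNAT10_TGFB, 1.34 ± 0.0551 in SiNAT10, 0.916 ± 0.0187 in TGFB and 0.792 ± 0.0222 in con (SD, n = 3 each). Since it is taken within a library, the ratio does not depend on the scaling, and its ranges were 1.33 to 1.48, 1.3 to 1.4, 0.896 to 0.933 and 0.774 to 0.817 in the same order of groups. Likewise MT-ND1 to MT-CYB was 1.15 ± 0.0346 in SiNAT10_TGFB and 1.17 ± 0.0379 in SiNAT10, against 0.52 ± 0.0085 in TGFB and 0.562 ± 0.0218 in con. The ratios are descriptions of the 12 libraries, with no test.

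**Figure D3:**
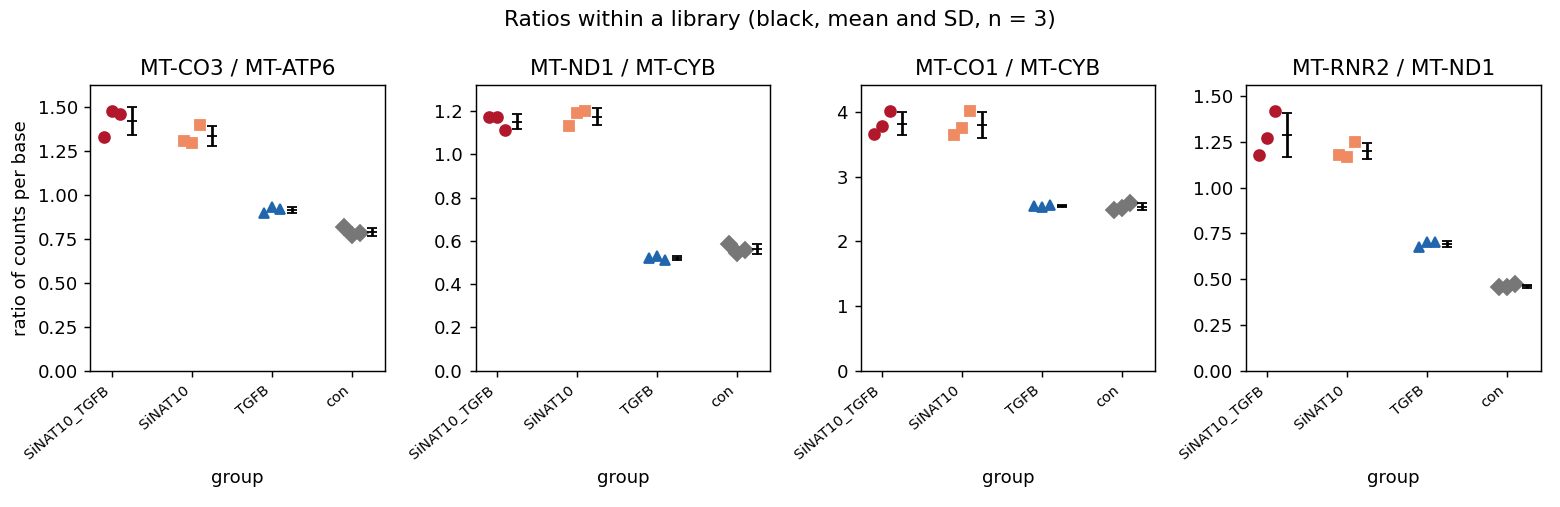
Ratios of counts per base within each library, with the mean and SD of 3 in black. MT-CO3 to MT-ATP6, MT-ND1 to MT-CYB, MT-CO1 to MT-CYB and MT-RNR2 to MT-ND1 are higher in all 6 siRNA libraries than in the 6 others; MT-CO3 to MT-ATP6 is 1.42 in SiNAT10_TGFB and 1.34 in SiNAT10, against 0.916 in TGFB and 0.792 in con.

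Along the + strand, the log2 fold changes of the siRNA comparisons tended to be lower with distance from the rRNAs, though not in an unbroken order. MT-CO3, at 0.27 in SiNAT10_TGFB against TGFB and 0.45 in SiNAT10 against con, lay above its neighbours MT-ATP6 and MT-ND3. Across the 12 + strand mRNAs, the fold change in SiNAT10_TGFB against TGFB and the start position had a Pearson r of -0.83 and a Spearman rho of -0.85; in SiNAT10 against con they were -0.71 and -0.66. The same fold changes against GC content gave r of 0.25 and 0.39, and against gene length -0.12 and 0.02. For TGFB against con, r with position was 0.4. These are descriptions across genes of the same libraries that share precursor RNAs, and carry no p. The part of position, GC content or length in the fold changes was not tested.

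**Figure D4:**
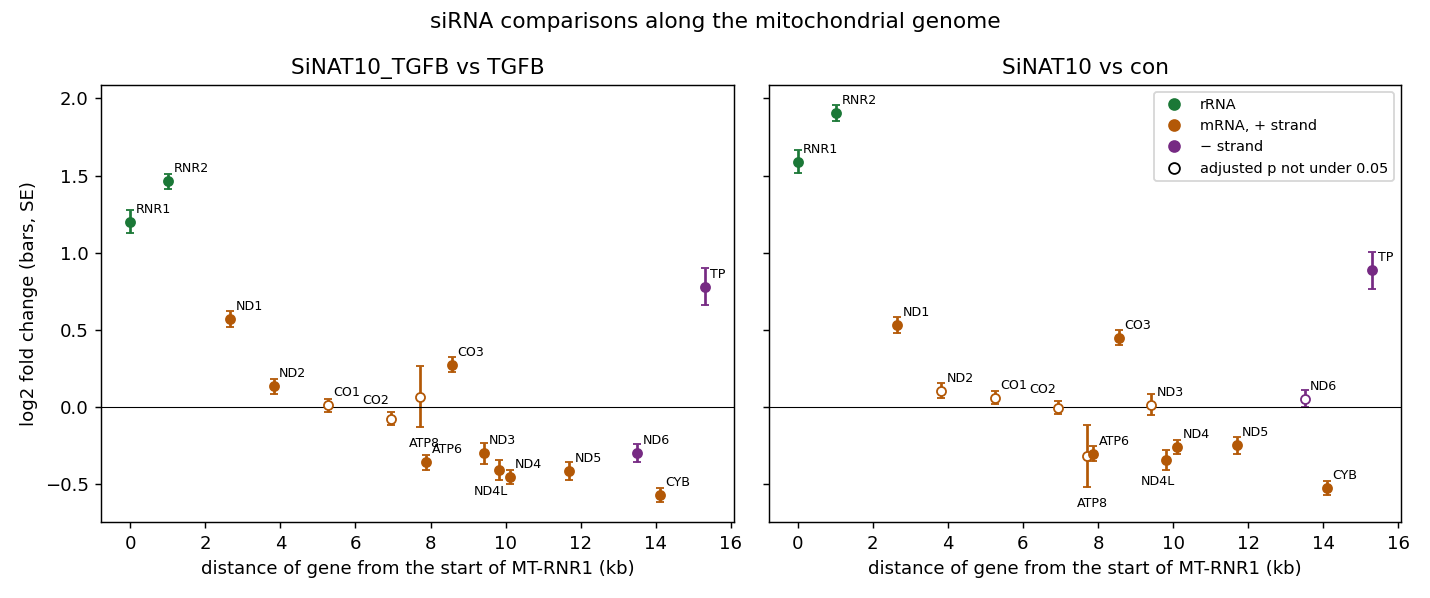
Log2 fold change with its SE against distance in kb from the start of MT-RNR1, SiNAT10_TGFB against TGFB on the left and SiNAT10 against con on the right; filled points passed an adjusted p under 0.05. The rRNAs are at the top, MT-CYB is lowest at -0.57 on the left and -0.53 on the right, and MT-CO3 lies above its neighbours.

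Fewer of these genes, and fewer of all genes tested, were called in the comparisons with TGF-β1 than in the siRNA comparisons. Between TGFB and con, 4 of 16 were called, all 4 higher with TMM scaling, against 24.1% of all genes called (11.9% higher and 12.2% lower). With library size as the sole scaling 6 were called, 2 higher, the rRNAs, and 4 lower: MT-ND1 at -0.241 (adjusted p = 0.00161), MT-ND2 at -0.219 (adjusted p = 0.00133), MT-CYB at -0.126 (adjusted p = 0.0363) and MT-CO1 at -0.118 (adjusted p = 0.0284). That scaling moved the median of all genes to -0.142 and called 6033 of 18560 genes, 1410 higher and 4623 lower, against 4472 with TMM. The genes called with TMM were MT-RNR2, with a log2 fold change of 0.48 (adjusted p = 1.01e-07, SE 0.051), MT-RNR1 with 0.38 (adjusted p = 0.000443, SE 0.073), MT-CO3 with 0.25 (adjusted p = 0.000465, SE 0.048) and MT-ND3 with 0.20 (adjusted p = 0.0281, SE 0.067). The other 12 were between -0.29 and 0.17. MT-RNR1 was at 0.237 without TGFB library 3, the highest of the TGFB libraries. The MT-CO3 call did not hold with FPKM (0.25, adjusted p = 0.0707) or with library size as the sole scaling (0.11, adjusted p = 0.0725), and that of MT-ND3 did not hold with either, nor without TGFB library 1 (0.15, adjusted p = 0.186) or con library 2 (0.14, adjusted p = 0.189).

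Between SiNAT10_TGFB and SiNAT10, 1 of 16 was called, against 11.1% of all genes (5.92% higher and 5.15% lower). This was MT-ND6, the complex I subunit on the - strand. MT-ND6 had 152.5, 145.5 and 153.0 CPM in the SiNAT10_TGFB libraries, 182.0, 178.8 and 185.2 CPM in SiNAT10, 195.9, 177.3 and 182.2 CPM in TGFB and 182.6, 170.1 and 173.7 CPM in con. The 3 SiNAT10_TGFB libraries were below all 9 others, which overlapped one another. MT-ND6 fell with a log2 fold change of -0.28 (adjusted p = 0.00162, SE 0.057) in SiNAT10_TGFB against SiNAT10 and -0.30 (adjusted p = 0.000109, SE 0.057) in SiNAT10_TGFB against TGFB, and was at 0.053 (adjusted p = 0.457, SE 0.057, 95% interval -0.07 to 0.17) in SiNAT10 against con and 0.077 (adjusted p = 0.365, SE 0.057, 95% interval -0.04 to 0.2) in TGFB against con. As a share of mitochondrial mRNA counts it was 0.764% ± 0.00985 in SiNAT10_TGFB, 0.904% ± 0.00737 in SiNAT10, 0.867% ± 0.0263 in TGFB and 0.852% ± 0.0204 in con (SD, n = 3 each). The other 15 genes were between -0.11 and 0.10 in SiNAT10_TGFB against SiNAT10. As for MT-TP, strand was not given, so RNA from the opposite strand cannot be told apart from MT-ND6.

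The difference with TGF-β1 was itself tested for a difference between cells with and without the siRNA. For 3 of 16 genes it was called, all lower with the siRNA, against 3.85% of all genes (1.94% higher and 1.91% lower). MT-RNR2 had an interaction of -0.45 (adjusted p = 0.000366, SE 0.071), MT-RNR1 of -0.39 (adjusted p = 0.0307, SE 0.1) and MT-ND6 of -0.35 (adjusted p = 0.011, SE 0.081), on the log2 scale. The rRNAs were higher with TGF-β1 in cells without siRNA, while in siRNA cells MT-RNR2 was at 0.036 (adjusted p = 0.767, SE 0.05, 95% interval -0.07 to 0.14) and MT-RNR1 at -0.015 (adjusted p = 0.944, SE 0.072, 95% interval -0.16 to 0.14). The MT-RNR1 value did not hold without TGFB library 3, at -0.25 (adjusted p = 0.118), and with con library 1, 2 or 3, SiNAT10 library 2 or SiNAT10_TGFB library 1 or 2 left out it lay between -0.41 and -0.37 with adjusted p between 0.0519 and 0.0854, nor did it hold with FPKM (-0.38, adjusted p = 0.14). The MT-ND6 value did not hold without TGFB library 1, at -0.305 (adjusted p = 0.0633), and neither held with library size as the sole scaling, at -0.32 (adjusted p = 0.0721) for MT-RNR1 and -0.28 (adjusted p = 0.0503) for MT-ND6.

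**Figure D5:**
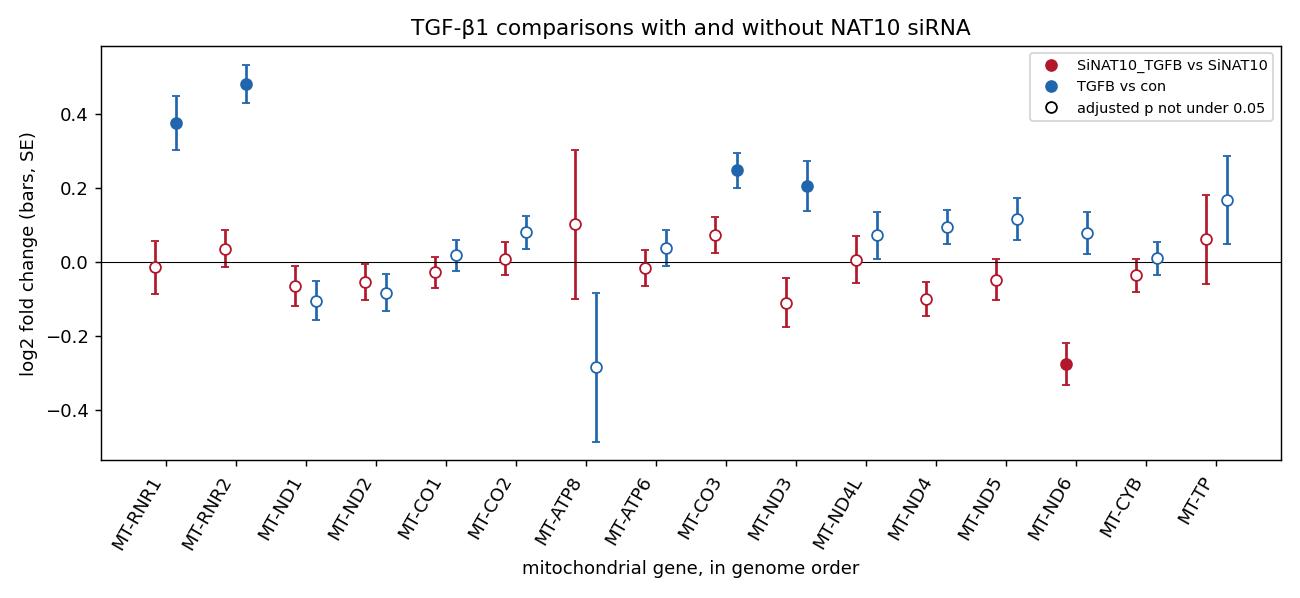
Log2 fold change with its SE for TGF-β1, SiNAT10_TGFB against SiNAT10 in red and TGFB against con in blue, for 16 genes in genome order; filled points passed an adjusted p under 0.05. MT-RNR2 is at 0.036 in red and 0.48 in blue, and MT-ND6 at -0.28 in red and 0.077 in blue.

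Copies of mitochondrial genes in the nuclear genome, taken here by name, could share reads with them where they are nearly identical. Of 407 rows with the names of such copies, 13 passed the filter. MTATP6P1 (hg38 chr1:633696-634376), which matches MT-ATP6 at 98.53% of bases with 10 mismatches over 681, held 6257 to 10759 counts per library, and 20.8 to 23.5 for each 100 of MT-ATP6 in every library. It fell with a log2 fold change of -0.34 (adjusted p = 2.72e-05, SE 0.056) in SiNAT10 against con and -0.29 (adjusted p = 0.00013, SE 0.056) in SiNAT10_TGFB against TGFB, close to the values of MT-ATP6. MTND2P28 (98.37%) held 1362 to 2004 counts and MTCO1P12 (98.7%) 404 to 664. The other 10, MTRNR2L3, MTND4P12, MTND1P9, MTND5P11, MTCO1P28, MTND4P15, MTND5P42, MTND1P23, MTRNR2L4 and MTCO3P29, held at most 38. Their match over the aligned bases ran from 73.89% for MTND5P42 to 99.15% for MTND1P23. Adding the copies' counts to their mitochondrial genes left the counts of called genes as given above.

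Nuclear genes that run mitochondrial transcription, RNA processing and decay were called in both directions, as were genes overall. Of 57 such genes, 20 were higher and 16 lower in SiNAT10 against con (median log2 fold change 0.14), and 25 were higher and 16 lower in SiNAT10_TGFB against TGFB (median 0.17), beside 26.4% higher and 26.4% lower of all genes in the first comparison and 26.3% and 26.8% in the second. TWNK, the mitochondrial DNA helicase, rose with a log2 fold change of 0.94 (adjusted p = 3.32e-10, SE 0.075) in SiNAT10 against con and 0.96 (adjusted p = 1.7e-10, SE 0.074) in SiNAT10_TGFB against TGFB. MRM1, which methylates the large-subunit rRNA, fell with -1.09 (adjusted p = 2.59e-07, SE 0.13) and -1.15 (adjusted p = 8.74e-08, SE 0.13), and TRMU, which thiolates mitochondrial tRNAs, fell with -0.65 (adjusted p = 6.13e-08, SE 0.071) and -0.67 (adjusted p = 4.2e-08, SE 0.071). PDE12, a nuclease that shortens poly(A) tails of mitochondrial RNA, rose with 0.60 (adjusted p = 8.92e-08, SE 0.067) and 0.46 (adjusted p = 5.48e-06, SE 0.069). MRM2, another rRNA methylase, rose with 0.58 (adjusted p = 1.97e-06, SE 0.08) and 0.77 (adjusted p = 3.05e-08, SE 0.081). The genes below were chosen after their values were seen. FASTKD5, which cuts the MT-ATP6 and MT-CO3 junction, rose with 0.28 (adjusted p = 0.00636, SE 0.083) and 0.64 (adjusted p = 7.18e-07, SE 0.083). Its part in the ratio of MT-CO3 to MT-ATP6 was not tested. Other RNA processing and modification genes of the list went in both directions. Among those higher in both comparisons were TRMT10C with 0.78 and 0.94 and HSD17B10 with 0.445 and 0.31. Among those lower in both was FASTK with -0.51 and -0.52. GRSF1 fell with -0.19 and -0.29, and NSUN4 with -0.61 and -0.53. LRPPRC, which stabilises mitochondrial mRNAs, rose with 0.32 (adjusted p = 7.07e-05, SE 0.058) and 0.33 (adjusted p = 4.56e-05, SE 0.058). TFAM, which packages and helps to transcribe the genome, rose with 0.28 (adjusted p = 0.0293, SE 0.11) and 0.40 (adjusted p = 0.00295, SE 0.11), and the polymerase gene POLRMT was at -0.072 (adjusted p = 0.481, SE 0.081) and -0.12 (adjusted p = 0.217, SE 0.08).

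With TGF-β1, 5 of the 57 were higher and 3 lower in TGFB against con (median -0.02), where 24.1% of all genes were called. In SiNAT10_TGFB against SiNAT10, where 11.1% of all genes were called, edgeR called 0 of the 57 higher and 1 lower, against 6 higher and 2 lower at an unadjusted p under 0.05, and 1 higher and 1 lower by DESeq2 and 0 and 1 by limma voom. The lower gene was PDE12, at -0.45 (adjusted p = 4.23e-05, SE 0.067), and the next smallest p-values were those of POLG, TOP1MT and FASTKD5, at log2 fold changes of 0.22, 0.32 and 0.20 (adjusted p = 0.0645, 0.083 and 0.126). The interaction, called for 3.85% of all genes, was called for 0 of 57 by edgeR, DESeq2 and limma voom, against 5 higher and 1 lower at an unadjusted p under 0.05; FASTKD5 (0.36), SLIRP (-0.36), MTERF3 (0.41) and POLG2 (0.36) had the smallest p-values. In TGFB against con the smallest p-values were those of PDE12 with -0.30 (adjusted p = 0.00182, SE 0.068), HSD17B10, a subunit of the mitochondrial RNase P, with 0.30 (adjusted p = 0.00709, SE 0.08), REXO2, which degrades short RNAs, with 0.40 (adjusted p = 0.00747, SE 0.11), and TFB1M, which methylates the small-subunit rRNA, with -0.42 (adjusted p = 0.0118, SE 0.12).

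Among the nuclear partners of the mitochondrial subunits, more were higher than lower with the siRNA. Of 76 nuclear genes for subunits of complexes I to V, 49 were higher and 6 lower in SiNAT10 against con (median log2 fold change 0.33), and 41 were higher and 6 lower in SiNAT10_TGFB against TGFB (median 0.27), beside 26.4% and 26.4% of all genes in the first comparison and 26.3% and 26.8% in the second. In SiNAT10 against con, NDUFB11 rose with 0.80 (adjusted p = 6.71e-09, SE 0.077), SDHB, the iron-sulfur subunit of complex II, with 0.83 (adjusted p = 3.02e-08, SE 0.087), COX7A2 of complex IV with 0.64 (adjusted p = 3.24e-08, SE 0.067) and NDUFB9 with 0.68 (adjusted p = 8.23e-08, SE 0.076). In SiNAT10_TGFB against TGFB, NDUFB11 was at 0.82 (adjusted p = 4.25e-09, SE 0.077), COX7A2 at 0.65 (adjusted p = 2.7e-08, SE 0.067), SDHB at 0.81 (adjusted p = 3.56e-08, SE 0.086) and NDUFA2, a complex I subunit like NDUFB11 and NDUFB9, at 0.87 (adjusted p = 1.27e-07, SE 0.1). Between TGFB and con, 3 were higher, NDUFA11 with 0.56 (adjusted p = 0.00266, SE 0.13), UQCRC1 with 0.25 (adjusted p = 0.0187, SE 0.077) and NDUFB4 with 0.26 (adjusted p = 0.0396, SE 0.089), and 1 lower, ATP5PD with -0.26 (adjusted p = 0.0464, SE 0.094), beside 11.9% and 12.2% of all genes. Between SiNAT10_TGFB and SiNAT10, 0 of 76 were called by edgeR, DESeq2 or limma voom, against 3 higher and 6 lower at an unadjusted p under 0.05, and NDUFC1 (-0.26), NDUFS8 (-0.25), NDUFB4 (0.23) and ATP5MG (-0.29) had the smallest p-values; 11.1% of all genes were called there. The interaction, called for 3.85% of all genes, was called for NDUFA11, at -0.76 (adjusted p = 0.021, SE 0.19), and not for ATP5MC1 (-0.24), NDUFA13 (0.88) or NDUFS6 (-0.31), which followed it by p.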

How the data were processed

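Gene counts of 12 libraries were deposited by the authors for 58735 genes, with FPKM deposited by the authors beside them. Per the submitters' processing notes, reads passed through fastp and HISAT2 2.2.1 on hg38; the counter, its annotation and strand setting and the RNA selection were not stated. Recomputing FPKM from the counts gave the same numbers apart from a constant in each library. The counts were tested with edgeR 4.0.16 in R 4.3.3 (TMM, filterByExpr, 1 quasi-likelihood fit of all 12 libraries, Benjamini-Hochberg over all 18560 genes kept); SE is the log2 fold change over the square root of F, and the interaction is the TGF-β1 difference with siRNA minus that without. The steps were tested on simulated data, in which 18360 of 18560 genes were unchanged. The changed genes were drawn from non-mitochondrial genes above a floor on mean counts. The shares below therefore do not describe the mitochondrial genes, nor comparisons in which many more genes differ. Of genes changed by a log2 of 0.25, 10 to 22% were called in the comparisons of 2 groups and 0% in the interaction. At a log2 of 0.5 these were 62 to 76% and 44%, and at 1 they were 90 to 96% and 78%. GENCODE 29 transcripts on hg38 gave GC content, overlaps and sequences. Alternatives used DESeq2 1.42.0, limma 3.58.1, other scalings, no filter, FPKM, GC trend removal, a replicate block and libraries left out.

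The members and lists were chosen with earlier results of these data known. All mRNA and rRNA genes and tRNA genes passing the filter are named, with the 4 smallest p-values per comparison in each nuclear list. The histone and short nuclear RNA lists were added after values were seen. Replicate numbers did not pair libraries: of 18 same-numbered pairs across groups, 0 had a correlation of deviations over 0.1 (-0.073 to 0.048).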

Additional observations from a re-analysis of the deposited data

Results flagged for a closer look

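The difference between cells with and without TGF-β1 itself differed with the NAT10 siRNA for 3 mitochondrial genes, by the interaction term of edgeR's quasi-likelihood test with adjustment over all genes. The interaction, on the log2 scale, was -0.45 for MT-RNR2 (adjusted p = 0.000366), -0.39 for MT-RNR1 (adjusted p = 0.0307) and -0.35 for MT-ND6 (adjusted p = 0.011). The MT-RNR1 call was lost in 7 of the 12 fits that left out 1 library, with FPKM (-0.38, adjusted p = 0.14) and with library size as the sole scaling (-0.316, adjusted p = 0.0721). The MT-ND6 call was lost without TGFB library 1 (-0.305, adjusted p = 0.0633) and with library size as the sole scaling (-0.278, adjusted p = 0.0503). MT-ND3, not called at -0.32 (adjusted p = 0.0676), was called with DESeq2 (-0.314, adjusted p = 0.0435), upper quartile scaling (-0.337, adjusted p = 0.0468), no filter on low counts (-0.298, adjusted p = 0.0316) and the GC trend removed (-0.353, adjusted p = 0.0137), and without con library 3 or SiNAT10 library 3. For MT-RNR2, every TGFB library was above every con library, while SiNAT10_TGFB libraries at 2466.5 to 2643.4 CPM overlapped SiNAT10 libraries at 2381.5 to 2625.9 CPM. For MT-ND6, every SiNAT10_TGFB library was below every SiNAT10 library, while TGFB and con libraries overlapped.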

How the results depend on the processing

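With library size as the sole scaling, the all-gene median log2 fold change moved to -0.142 in TGFB against con (23.4% of calls higher, against 49.5% with TMM), 0.138 in SiNAT10_TGFB against TGFB (61.3% against 49.6%), -0.065 in SiNAT10_TGFB against SiNAT10 (36.7% against 53.5%) and 0.078 in the interaction (68.9% against 50.4%). All-gene calls were then 6033 in TGFB against con, 2386 in SiNAT10_TGFB against SiNAT10 and 931 in the interaction, against 4472, 2054 and 714 with TMM. Mitochondrial calls were 6 in TGFB against con (2 higher and 4 lower, against 4 higher and 0 lower with TMM), 2 in SiNAT10_TGFB against SiNAT10 and 1 in the interaction. The 4 lower were MT-ND1 at -0.241, MT-ND2 at -0.219, MT-CYB at -0.126 and MT-CO1 at -0.118. MT-CO1 was called higher in SiNAT10 against con (0.113) and in SiNAT10_TGFB against TGFB (0.141), and MT-ND2 in SiNAT10 against con (0.158). Class sums in TGFB against con became -0.083 for mRNA, 0.324 for rRNA and 0.035 for tRNA; in SiNAT10_TGFB against TGFB 0.012, 1.546 and 0.916; and for mRNA 0.023 in SiNAT10 against con (0.003 with the upper quartile) and -0.095 in SiNAT10_TGFB against SiNAT10. Besides MT-CO1 and MT-CYB, single genes changed sign in TGFB against con, with MT-ND4 at -0.042, MT-CO2 at -0.056, MT-ND5 at -0.02 and MT-ND6 at -0.059, and MT-CO2 did so at 0.049 (upper quartile 0.029) in SiNAT10 against con and at 0.053 in SiNAT10_TGFB against TGFB. MT-CYB was at -0.003 in TGFB against con with no filter. FPKM with either pseudocount called 2 in TGFB against con. With the GC trend removed, with or without the replicate block, 8 mitochondrial genes were called in TGFB against con and 6 in the interaction. Without the block, all genes then gave 5662 calls in TGFB against con, against 4472 in the main fit. In the interaction they gave 1367 calls against 714. MT-CO1 was then at -0.029 (block -0.03) and MT-ND2 at -0.014 in SiNAT10 against con. In SiNAT10_TGFB against TGFB, MT-CO1 was at -0.098 (block -0.097) and MT-ND2 at -0.022. The cause of these shifts was not tested, beyond the scaling itself.

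Leaving out 1 library at a time gave 3 to 4 calls in TGFB against con, 10 to 10 in SiNAT10 against con, 12 to 13 in SiNAT10_TGFB against TGFB, 1 to 2 in SiNAT10_TGFB against SiNAT10 (2 without SiNAT10_TGFB library 1) and 2 to 4 in the interaction. MT-CO1 then ranged from -0.008 to 0.04 and MT-CYB from -0.015 to 0.028 in TGFB against con, MT-CO2 from -0.023 to 0.023 in SiNAT10 against con, and MT-CO1 from -0.011 to 0.037 in SiNAT10_TGFB against TGFB. The replicate block alone gave 4, 10, 13, 1 and 3 calls in the 5 tests, as without it, and 1 of 12 libraries correlated best with its own number. MT-TP and MT-ATP8 are limited by depth, with 192 to 342 and 77 to 160 counts per library.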
